A study of Homo sapiens with 4 samples.

Results

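Integrins and laminins were followed as a set of 38 genes, all those of the 60623 genes in the count files whose symbol named an integrin alpha subunit, an integrin beta subunit or a laminin chain. The set held 26 integrin genes, of which 18 encode alpha subunits and 8 beta subunits, and 12 laminin genes. The rule reads the symbol alone, and the set was proposed with earlier results of these data known. They were measured by RNA-seq in BICR10, an established cell line from a human cancer of the head and neck, in 2 libraries of cells transduced by lentivirus with a control short hairpin (shControl) and 2 libraries of cells transduced with a hairpin against YEATS2 (shYEATS2). Transduced cells of both groups had been selected with puromycin, and the sources used here do not say which YEATS2 hairpin each shYEATS2 library carried. YEATS2 is a reader of acylated histones, and the comparison asks how gene expression as a whole changes when its level is reduced in a cell line used to study epithelial-to-mesenchymal transition. The study describes its replicates in general as biological, while the labels of these libraries name no separate cultures, so that p-values measure the spread between these libraries, which may be partly technical.

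An integrin is a cell surface receptor made of 1 alpha and 1 beta subunit, and the alpha subunit largely sets which matrix protein is bound. ITGA1, ITGA2, ITGA10 and ITGA11 bind collagen together with ITGB1. ITGA3, ITGA6 and ITGA7 bind laminin with ITGB1, and ITGA6 also pairs with ITGB4, the subunit that hemidesmosomes use to anchor epithelial cells to the basement membrane. ITGA5, ITGAV and their relatives bind fibronectin and other ligands, many of them through the peptide motif RGD. Laminins are trimers of 1 alpha, 1 beta and 1 gamma chain that form the sheet of the basement membrane. Laminin-332, which contains LAMA3 and LAMB3, is the form typical of squamous epithelium, whereas LAMA5 with LAMB1 or LAMB2 and LAMC1 gives widespread forms.

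Counts on genes summed to 47297970 and 39824898 with shControl and to 24072396 and 11334133 with shYEATS2, so depth and knockdown cannot be told apart by design. YEATS2 itself stood at 66.1 and 66.7 CPM (counts scaled to a common library size by the TMM method) in shControl and at 29.2 and 29.1 CPM in shYEATS2, and the fitted level left was 43.95% (log2 fold change −1.19, SE 0.08, adjusted p = 3.55e-21 in edgeR's quasi-likelihood test). Every log2 fold change and adjusted p given for a gene comes from that test, with Benjamini-Hochberg adjustment over the 17058 genes that had enough counts, and a gene was called at an adjusted p under 0.05. For a single gene, the smallest two-sided p that an exact permutation test of 2 libraries against 2 can give is 0.333. The labelled cell type was compared with marker genes. Of 12 epithelial markers, KRT8 (269 and 264 CPM), SFN (129.9 and 130.1 CPM) and KRT18 (110 and 111 CPM) stood highest in shControl. These genes made up most of the summed level of the 12, whereas KRT14 stood at 1.23 and 1.19 CPM. The basal and suprabasal keratins KRT5 and KRT6A were expressed and fell, KRT5 from 16.4 and 15.0 CPM to 1.03 and 1.36 CPM and KRT6A from 55.0 and 58.2 CPM to 1.38 and 2.21 CPM (log2 fold changes −3.78 and −5.09). DSC3 (−2.98), KRT14 (−2.31), KRT8 (−1.16), EPCAM (−1.07) and KRT18 (−0.55) were also lower. CDH1 rose from 0.353 and 0.318 CPM to 2.84 and 2.12 CPM (2.91, adjusted p = 4.61e-10), SFN and DSG3 were not called, and TP63 and KRT17 had at most 15 counts in a library. The summed level of these 12 genes went from 593 and 591 CPM in shControl to 347 and 323 CPM in shYEATS2, with 7 of the 10 tested genes lower and 1 higher. The summed level of 9 fibroblast markers went from 7302 and 7212 CPM to 2363 and 2224 CPM, with 7 of the 8 tested genes lower and none higher. Of the other fibroblast markers, 1 was tested and not called, and 1 had too few counts for a test. The collagen genes among them made up most of this sum, which was larger than the epithelial sum in every library. Of 6 endothelial markers, CDH5, TIE1 and CLDN5 had at most 1 count in any library and VWF at most 7, PECAM1 lay between 1.24 and 1.87 CPM and was not called, and KDR was lower (33.8 and 35.1 CPM against 17.0 and 17.4 CPM, adjusted p = 1.11e-14). Their summed level was 35.5 and 36.4 CPM in shControl and 18.6 and 19.6 CPM in shYEATS2. Among the leukocyte markers, CD3E, CD68 and CD52 were at 0, PTPRC and LYZ had at most 5 counts in a library, and CD14 was lower (1.74 and 1.53 CPM against 0.553 and 1.19 CPM, −1.08). The summed level of 4 muscle markers lay between 2.28 and 3.48 CPM, and none was called. The epithelial, fibroblast and endothelial sums were lower in shYEATS2, the muscle sums overlapped, and the leukocyte sum was at most 1.85 CPM. The part of these changes in the integrin and laminin calls below, which went both ways, was not tested. In bulk RNA, fewer cells of a type and less RNA per cell cannot be told apart.

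Of the 38 integrin and laminin genes, 28 passed the filter on low counts. With shYEATS2, 14 of the 28 were lower and 5 were higher than in shControl, and 9 were not called. Among all genes tested, 46.2% were called, 23.6% as lower and 22.6% as higher, so that the share of members called lower (50%) stood above the background and the share called higher (17.9%) was near it. The median log2 fold change was −0.19 over the 28 members and −0.01 over all genes tested. Most differences were modest. The 19 called members changed by a median of 0.47 on the log2 scale in either direction, against 0.49 for all called genes. At least a 2-fold change besides the adjusted p was found in 9.69% of all genes tested and in 1 member, ITGA6. In 17 members both libraries with the YEATS2 hairpin lay below both with the control hairpin, against 36.3% of all genes tested, and in 7 members they lay above, against 35.3% of all genes tested. The groups overlapped in the other 4 members. Scaling by library totals alone moved the median of all genes to 0.13 and the background to 15.0% lower and 31.9% higher. Under that scaling 7 members were lower and 5 were higher.

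**Figure D1:**
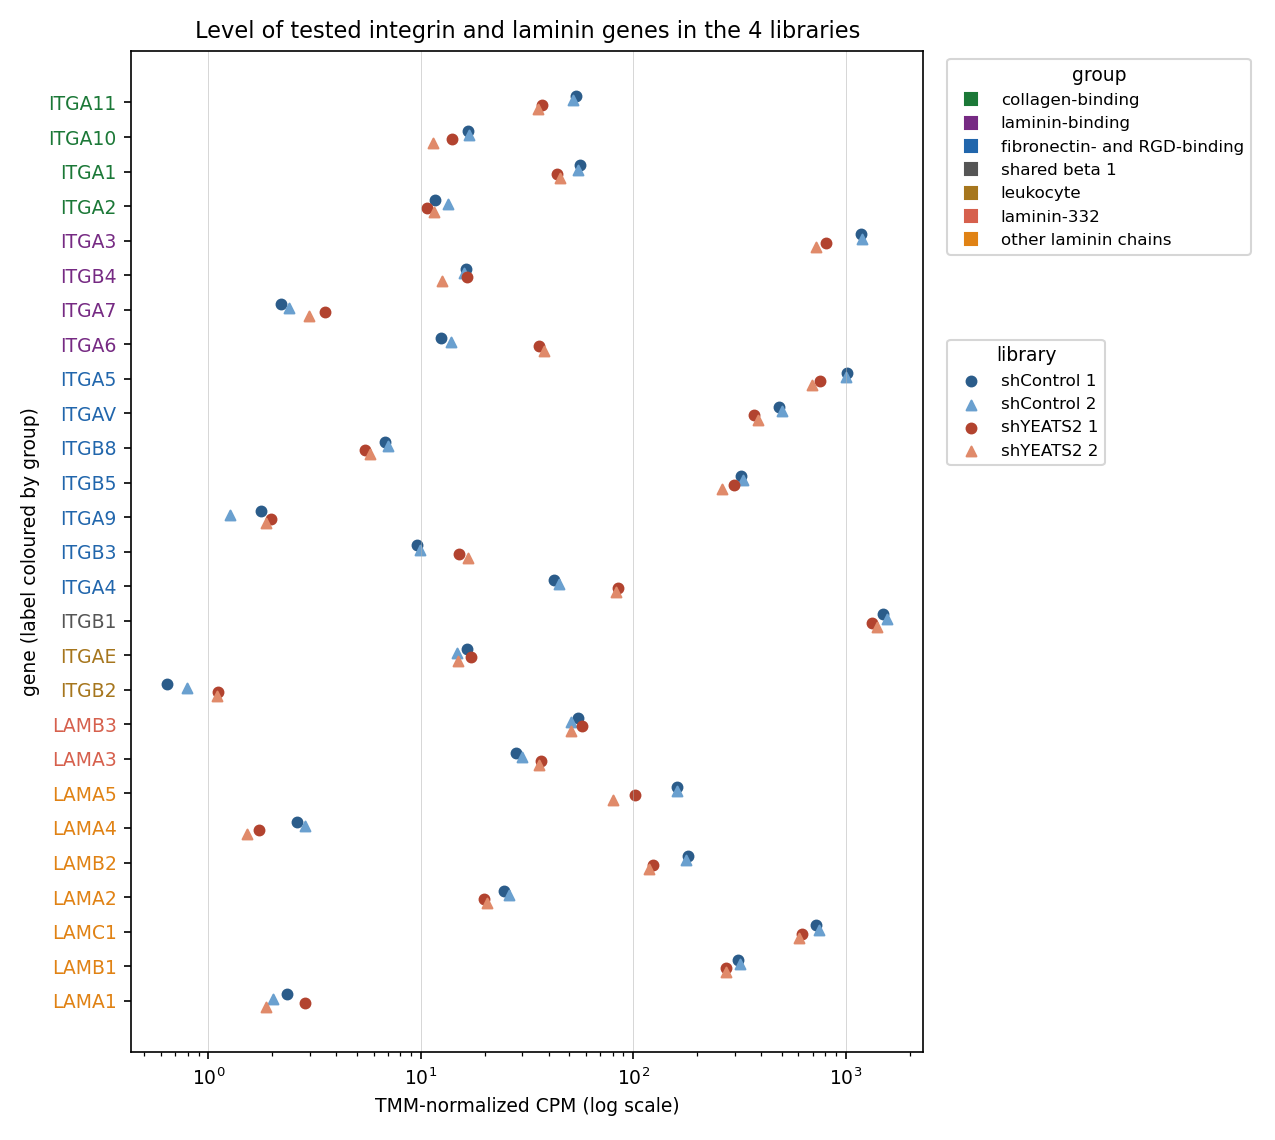
Level of 27 tested integrin and laminin genes in the 4 libraries, in TMM-normalized CPM on a log axis, with blue points for shControl and red points for shYEATS2. The levels run from below 1 CPM (ITGB2) to 1571 CPM (ITGB1), and the red points of ITGA6 and ITGA4 stand clearly to the right of the blue ones.

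The 10 members that were not tested had at most 10 counts in any library. They were 5 of the 7 leukocyte integrin genes (ITGAL, ITGAM, ITGAX, ITGAD and ITGB7), the platelet subunit ITGA2B, ITGA8, the epithelial subunit ITGB6, and the laminin chains LAMB4 and LAMC3. LAMB4 had 9 and 4 counts in shControl and 0 in both shYEATS2 libraries, whose depth was lower, and a difference was not detectable at this depth.

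The promoters of 4 members are shown because they belong to the largest rise (ITGA6), the largest fall (LAMA5) and a fall and a rise that share a motif (ITGA5 and LAMA3). Each runs 5′ to 3′ on the strand of its gene, from 250 bases before to 5 bases after a RefSeq start site, in GRCh38.p14. Capitals mark the GC box GGGCGG (or its reverse complement CCGCCC), the core bound by SP1-type factors, and TGANTCA, the core bound by AP-1. The windows are chr2:172427336-172427590 on the plus strand for ITGA6, chr20:62367308-62367562 on the minus strand for LAMA5, chr12:54419262-54419516 on the minus strand for ITGA5 and chr18:23872770-23873024 on the plus strand for LAMA3.
ITGA6: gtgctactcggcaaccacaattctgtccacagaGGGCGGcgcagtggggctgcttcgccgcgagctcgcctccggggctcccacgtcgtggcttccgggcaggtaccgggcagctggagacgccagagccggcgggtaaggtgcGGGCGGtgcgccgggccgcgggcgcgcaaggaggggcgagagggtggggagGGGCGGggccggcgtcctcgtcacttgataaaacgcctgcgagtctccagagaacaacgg
LAMA5: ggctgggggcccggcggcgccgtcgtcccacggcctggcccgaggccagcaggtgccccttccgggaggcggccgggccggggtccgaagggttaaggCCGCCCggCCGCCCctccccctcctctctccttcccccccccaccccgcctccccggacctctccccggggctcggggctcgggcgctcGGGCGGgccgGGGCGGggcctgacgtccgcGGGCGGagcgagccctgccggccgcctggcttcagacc
ITGA5: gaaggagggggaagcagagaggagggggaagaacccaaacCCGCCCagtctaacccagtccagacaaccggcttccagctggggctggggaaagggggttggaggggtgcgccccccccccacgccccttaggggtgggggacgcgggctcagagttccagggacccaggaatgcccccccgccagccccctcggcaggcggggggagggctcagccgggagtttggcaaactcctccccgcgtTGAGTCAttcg
LAMA3: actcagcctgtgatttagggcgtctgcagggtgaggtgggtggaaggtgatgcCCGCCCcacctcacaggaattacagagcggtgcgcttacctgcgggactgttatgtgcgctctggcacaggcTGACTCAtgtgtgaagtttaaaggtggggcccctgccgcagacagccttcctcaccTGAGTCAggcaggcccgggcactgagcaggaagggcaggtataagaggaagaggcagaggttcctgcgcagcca

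The LAMA5 window held 5 GC boxes, the ITGA6 window 3, and the ITGA5 and LAMA3 windows 1 each. The AP-1 letters were found once in the ITGA5 window and at 2 places in the LAMA3 window. The LAMA3 start lies 183567 bases downstream of the start of the Ensembl canonical transcript, within the gene, and it is the start of the shorter LAMA3 transcripts. RefSeq windows of 300 bases were found for 26 of the 38 members, 33 windows in all since some genes had several. A GC box, searched on both strands, stood in 57.6% of the member windows and in 45.0% of all 35116 windows. AP-1 letters, also searched on both strands, stood in 9.09% of the member windows and in 7.71% of all windows. No stretch of letters can belong to both motifs. The other motifs searched, on both strands, stood in the member windows and in all windows at 6.06% and 11.5% for TATAAA, at 18.2% and 34.6% for CCAAT, at 12.1% and 14.0% for GGAATG (TEAD factors), at 24.2% and 20.6% for CACCTG (an E-box) and at 3.03% and 3.62% for TGATGNAA (ATF4 with CHOP). By gene, a GC box was found in 7 of 13 members called lower, 2 of 3 called higher and 3 of 4 not called. The 3 genes with AP-1 letters were ITGA5, which was lower, LAMA3, which was higher, and LAMB3, which was not called. A match is a description of letters and not of a bound site.

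Most of the collagen-binding subunits were lower. With shYEATS2, 3 of the 4 genes fell and none rose, against 23.6% of all genes tested called lower and 22.6% called higher. The median log2 fold change was −0.35. All 4 had both shYEATS2 libraries below both shControl libraries, as had 36.3% of all genes tested. ITGA11 (ENSG00000137809, chr15:68296532-68432163, minus strand), a receptor for fibrillar collagen typical of fibroblasts, stood at 53.7 and 52.2 CPM in shControl and at 37.2 and 35.7 CPM in shYEATS2. Its log2 fold change was −0.53 (SE 0.08, adjusted p = 2.52e-08). ITGA1 (ENSG00000213949, chr5:52787916-52959209, plus strand), whose product prefers the collagen IV of basement membranes, stood at 56.0 and 55.1 CPM in shControl and at 43.8 and 45.1 CPM in shYEATS2. It fell by 0.33 on the log2 scale (SE 0.07, adjusted p = 0.000215). For ITGA11 and ITGA1 the distance between the groups was several times that between replicates. PELO, an expressed gene on the same strand, shares 2.69% of the annotated exon bases of ITGA1. It had 1850 and 1528 counts in shControl and 803 and 311 in shYEATS2, and the effect of this overlap on the ITGA1 counts was not tested. ITGA10, known from cartilage, stood at 16.6 and 16.9 CPM in shControl and at 14.1 and 11.4 CPM in shYEATS2. Its log2 fold change was −0.37 (SE 0.11, adjusted p = 0.00466), and its call was lost with library totals alone (−0.23, adjusted p = 0.0912) and with DESeq2 (−0.37, adjusted p = 0.0536). ITGA2, the receptor of epithelial cells and platelets for collagen I, was not called at 11.6 and 13.5 CPM against 10.7 and 11.5 CPM (−0.18, 95% CI −0.42 to 0.06, adjusted p = 0.216).

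The laminin-binding subunits moved in opposite directions, with 1 of the 4 genes lower and 2 higher (median 0.21). Among all genes tested 23.6% were lower and 22.6% higher. ITGA3 (ENSG00000005884, chr17:50055968-50090481, plus strand), which binds laminin-332 and LAMA5-containing laminins as a dimer with ITGB1, was one of the most abundant members. It stood at 1182 and 1197 CPM in shControl and at 806 and 722 CPM in shYEATS2, with 64.3% of the control level left by the fitted fold change (log2 fold change −0.64, SE 0.06, adjusted p = 1.46e-14). ITGA6 (ENSG00000091409, chr2:172427354-172506459, plus strand), the other major laminin receptor subunit of epithelial cells, stood at 12.4 and 13.9 CPM in shControl and at 35.9 and 38.2 CPM in shYEATS2. It rose to 281% of the control level (log2 fold change 1.49, SE 0.09, adjusted p = 5.29e-22). By its fold change ITGA6 had rank 586 from the top among the 17058 genes tested. Per kilobase of the canonical transcript, the level of ITGA6 was 0.00884 and 0.00974 of that of ITGA3 in shControl and 0.0374 and 0.0444 in shYEATS2. ITGA3 transcripts thus remained the more abundant by far in every library.

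The beta partner that ITGA6 has in hemidesmosomes was not called. ITGB4 (ENSG00000132470, chr17:75721328-75757818, plus strand) stood at 16.3 and 16.0 CPM in shControl and at 16.5 and 12.6 CPM in shYEATS2, with overlapping groups (log2 fold change −0.11, 95% CI −0.33 to 0.11, adjusted p = 0.421). The library shYEATS2 2 was the low one, and without shYEATS2 replicate 1 the change of ITGB4 passed the threshold at −0.37 (adjusted p = 0.0188). Per kilobase, ITGB4 was at 1.29 and 1.14 times the level of ITGA6 in shControl and at 0.453 and 0.327 times in shYEATS2. ITGA7, the laminin receptor subunit of muscle, was low, between 2.20 and 2.41 CPM in shControl and between 2.97 and 3.55 CPM in shYEATS2. It was called higher (0.53, SE 0.23, adjusted p = 0.0472), and 6 of 14 alternatives lost this call.

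**Figure D2:**
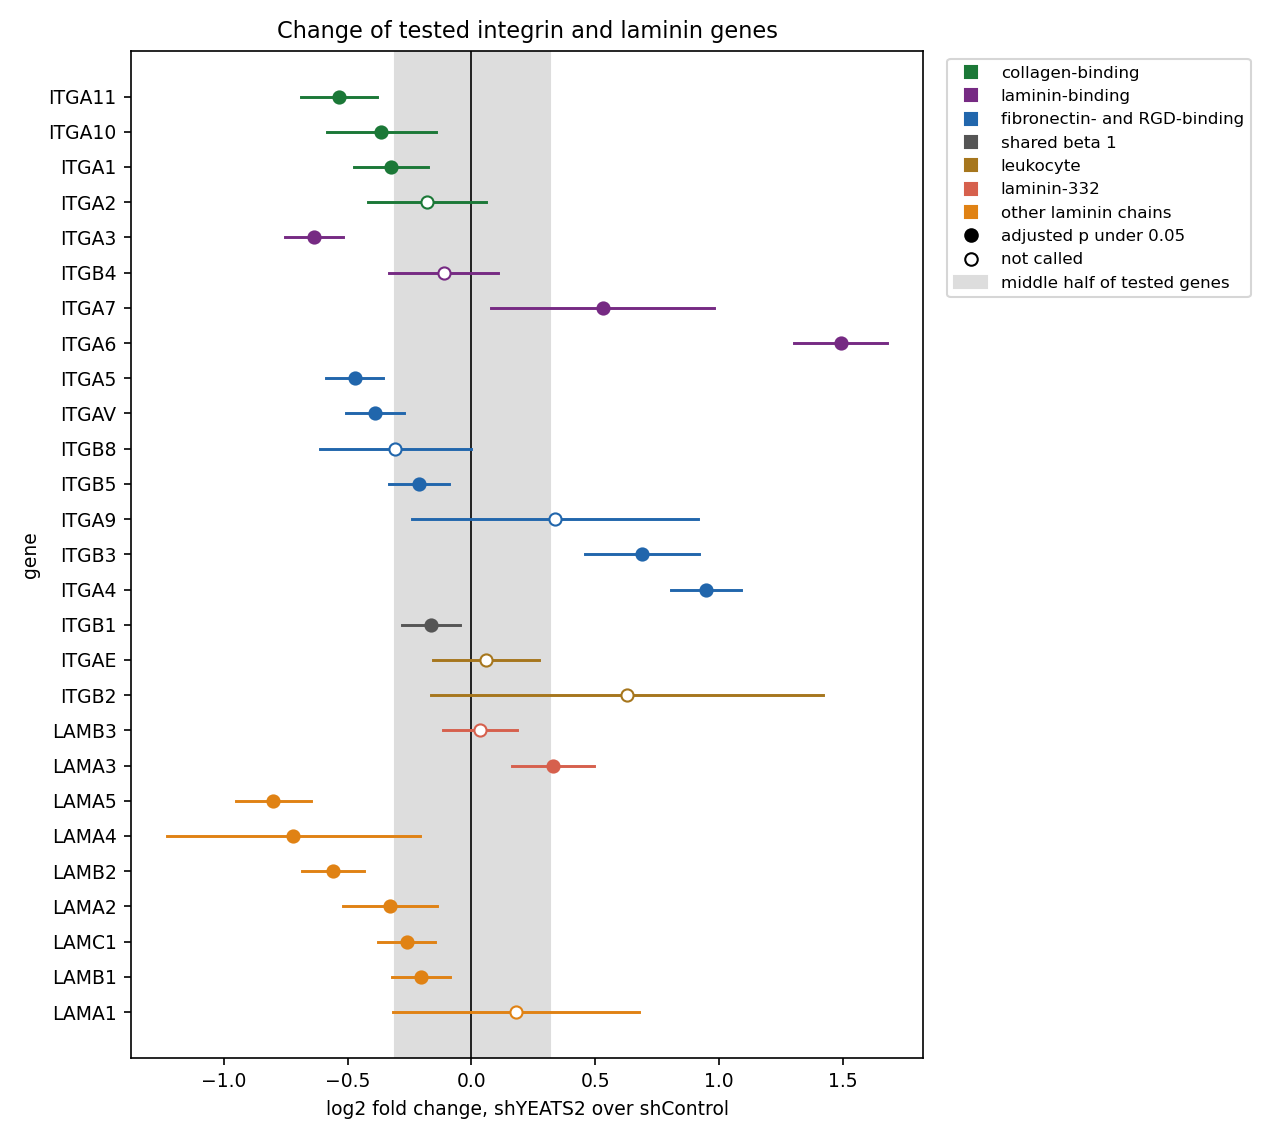
Log2 fold change of 27 tested members, shYEATS2 over shControl, with its 95% confidence interval from edgeR's quasi-likelihood fit and the genes ordered by binding group. ITGA6 at 1.49 and ITGA4 at 0.95 lie farthest to the right and LAMA5 at −0.80 farthest to the left, and all of the collagen-binding subunits lie left of 0.

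Among the 10 fibronectin- and RGD-binding subunits, 7 were tested (median −0.21). Of these 3 fell and 2 rose, against 23.6% and 22.6% of all genes tested. The falls were in the abundant subunits. ITGA5 (ENSG00000161638, chr12:54395261-54419266, minus strand), the alpha subunit of the classical fibronectin receptor, stood at 1014 and 1004 CPM in shControl and at 758 and 696 CPM in shYEATS2 (log2 fold change −0.47, SE 0.06, adjusted p = 3.04e-10). ITGAV (ENSG00000138448, chr2:186590010-186680901, plus strand), the alpha subunit of the vitronectin receptors, stood at 485 and 504 CPM in shControl and at 369 and 386 CPM in shYEATS2 (−0.39, SE 0.06, adjusted p = 5.58e-08). Its beta partner ITGB5 stood at 321 and 328 CPM in shControl and at 298 and 261 CPM in shYEATS2. ITGB5 fell by 0.21 on the log2 scale (SE 0.06, adjusted p = 0.00309), and the call was lost with library totals alone (−0.08, adjusted p = 0.329) and without shControl replicate 2 (−0.20, adjusted p = 0.0527).

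The rises were in less abundant subunits. ITGA4 (ENSG00000115232, chr2:181457202-181538940, plus strand), which binds VCAM1 and an alternatively spliced part of fibronectin, stood at 42.2 and 44.8 CPM in shControl and at 84.8 and 82.6 CPM in shYEATS2. Its log2 fold change was 0.95 (SE 0.07, adjusted p = 1.17e-18). The antisense gene CERKL shares 26.4% of the annotated exon bases of ITGA4 and had at most 9 counts in a library. ITGB3 (ENSG00000259207, chr17:47253827-47313743, plus strand), another partner of ITGAV, stood at 9.63 and 9.92 CPM in shControl and at 15.2 and 16.6 CPM in shYEATS2 (0.69, SE 0.11, adjusted p = 6.75e-07). ENSG00000259753, an overlapping gene on the same strand with 33.2% of the ITGB3 exon bases, had 0 counts in every library. In ITGA4 and ITGB3 both shYEATS2 libraries lay above both shControl libraries, as in 35.3% of all genes tested. ITGB8, a partner of ITGAV in the activation of latent TGF-beta, stood at 6.81 and 7.04 CPM in shControl and at 5.49 and 5.77 CPM in shYEATS2, and it was not called (−0.31, 95% CI −0.61 to 0.00, adjusted p = 0.0949). ITGA9, which binds tenascin, lay between 1.27 and 1.97 CPM in all libraries and was not called (adjusted p = 0.353).

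ITGB1 (ENSG00000150093, chr10:32887273-33005792, minus strand) is the beta subunit shared by the collagen-binding, most laminin-binding and several fibronectin-binding dimers. Per kilobase of the canonical transcript it had the highest level of all members, but not per kilobase of all annotated exons. It stood at 1497 and 1571 CPM in shControl and at 1330.4 and 1407 CPM in shYEATS2. The call as lower was weak (log2 fold change −0.16, SE 0.06, adjusted p = 0.0165). It was lost with library totals alone (−0.03, adjusted p = 0.682), without shControl replicate 1 (adjusted p = 0.0654) and without shControl replicate 2 (adjusted p = 0.242). The 95% CI of the change, −0.28 to −0.05, lies apart from those of ITGA3 (−0.75 to −0.52) and ITGA5 (−0.59 to −0.36), although the difference between genes was not tested. Of the leukocyte subunits, ITGAE, which pairs with ITGB7, stood at 16.5 and 14.9 CPM in shControl and at 17.2 and 15.0 CPM in shYEATS2 and was not called (0.06, 95% CI −0.15 to 0.27, adjusted p = 0.688). HASPIN, which lies within ITGAE on the other strand, shares 6.47% of the ITGAE exon bases. It had 497 and 405 counts in shControl and 359 and 171 in shYEATS2. ITGB2 lay between 0.639 and 1.11 CPM and was not called (adjusted p = 0.194).

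Of the laminin-332 chains, LAMA3 rose and LAMB3 was not called. The difference between these genes was not tested. LAMA3 (ENSG00000053747, chr18:23689453-23956222, plus strand) stood at 27.9 and 30.1 CPM in shControl and at 36.7 and 36.0 CPM in shYEATS2 (log2 fold change 0.33, SE 0.08, adjusted p = 0.000779). Both shYEATS2 libraries lay above both shControl libraries, as in 35.3% of all genes tested. The call was lost without shControl replicate 1 (0.27). LAMB3 (ENSG00000196878, chr1:209614870-209652425, minus strand) stood at 55.0 and 51.2 CPM in shControl and at 57.2 and 50.8 CPM in shYEATS2, with overlapping groups (0.03, 95% CI −0.11 to 0.18, adjusted p = 0.741).

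Most of the other laminin chains fell. Of 9 genes, 7 were tested (median −0.33). Among all genes tested 23.6% were lower and 22.6% higher, and of these 7 chains 6 were lower and none higher. With library totals alone 2 of them were lower, against 15.0% of all genes tested under that scaling. Without shControl replicate 2 fewer of them were called lower, as was also seen among all genes tested. LAMA5 (ENSG00000130702, chr20:62307955-62367312, minus strand), the most abundant alpha chain per kilobase, stood at 160.3 and 160.4 CPM in shControl and at 102 and 80.4 CPM in shYEATS2. It had the largest fall of the 28 members (log2 fold change −0.80, SE 0.07, adjusted p = 5.8e-11), and its fold change lay between −1.01 and −0.66 when single libraries were left out. LAMB2 (ENSG00000172037, chr3:49121114-49133118, minus strand), the beta chain of laminin-521, stood at 181 and 178 CPM in shControl and at 125 and 118 CPM in shYEATS2 (−0.56, SE 0.06, adjusted p = 9.69e-12). LAMB1, the beta chain of laminin-511, stood at 312 and 319 CPM in shControl and at 273 and 274 CPM in shYEATS2 (−0.20, SE 0.06, adjusted p = 0.003). LAMC1, the gamma chain of both forms, stood at 725 and 746 CPM in shControl and at 621 and 605 CPM in shYEATS2 (−0.26, SE 0.06, adjusted p = 0.000113). In all 4 genes the groups were apart. With library totals alone the calls of LAMB1 (−0.07, adjusted p = 0.314) and LAMC1 (−0.13, adjusted p = 0.0572) were lost, and those of LAMA5 and LAMB2 were kept.

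LAMA2, the alpha chain of muscle laminin, stood at 24.6 and 26.0 CPM in shControl and at 19.9 and 20.5 CPM in shYEATS2 (log2 fold change −0.33, SE 0.09, adjusted p = 0.00295). Its call was lost with library totals alone (adjusted p = 0.0816) and without shControl replicate 2 (adjusted p = 0.0673). LAMA4, a chain of endothelium and mesenchyme, was called lower at levels between 1.53 and 2.86 CPM (−0.72, SE 0.26, adjusted p = 0.0165), and 5 of 14 alternatives lost the call. LAMA1, the alpha chain of the embryonic laminin, lay between 1.87 and 2.84 CPM, and its groups overlapped (adjusted p = 0.585).

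Levels of different genes were compared as CPM per kilobase of the Ensembl canonical transcript. On this scale the shControl means ran from 411 for ITGB1 through 243 for ITGA3, 237 for ITGA5, 92.7 for LAMC1, 73.1 for ITGB5 and 70.3 for ITGAV to 55.8 for LAMB1, 31.5 for LAMB2, 14.0 for LAMA5 and 13.2 for LAMB3. The order depends on the length definition. With the lengths of all annotated exons ITGA5 came first, followed by ITGA3 and ITGB1, and lower places also changed. Among the alpha subunits, ITGA3 made up 41.8% and 42.1% of the summed level in shControl and 38.2% and 36.8% in shYEATS2. The share of ITGA5 was 41.3% and 40.6% in shControl and 41.3% and 40.8% in shYEATS2, so its groups overlapped. The share of ITGA4 went from 1.08% and 1.14% to 2.90% and 3.03%, and that of ITGA6 from 0.370% and 0.410% to 1.43% and 1.63%. With the lengths of all annotated exons the mean share of ITGA6 was 0.646% in shControl and 2.51% in shYEATS2. ITGB1 kept between 82.9% and 85.3% of the beta subunit level in all libraries. With the lengths of all annotated exons its mean share was 66.0% in shControl and 66.2% in shYEATS2. These shares are descriptions, with no test, and a gene's share can move when another gene of the family moves.

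Among the laminin alpha chains, LAMA5 made up 70.9% and 69.7% in shControl and 59.6% and 54.4% in shYEATS2. LAMA3 took up 13.2% and 14.0% in shControl and 23.1% and 26.1% in shYEATS2. The ratio of LAMA3 to LAMA5 was 0.187 and 0.201 in shControl and 0.387 and 0.480 in shYEATS2, and the groups were apart. Gene counts do not separate the long and the short LAMA3 transcripts, and the canonical length is that of a long one. Of the beta chains, LAMB1 went from 54.8% and 56.2% to 57.3% and 59.2%, LAMB2 from 31.6% and 31.1% to 25.9% and 25.3%, and LAMB3 from 13.6% and 12.7% to 16.9% and 15.4%. With the lengths of all annotated exons LAMB2 stood above LAMB1 (47.9% against 31.1% in shControl), whereas the direction of each of these changes was the same.

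**Figure D3:**
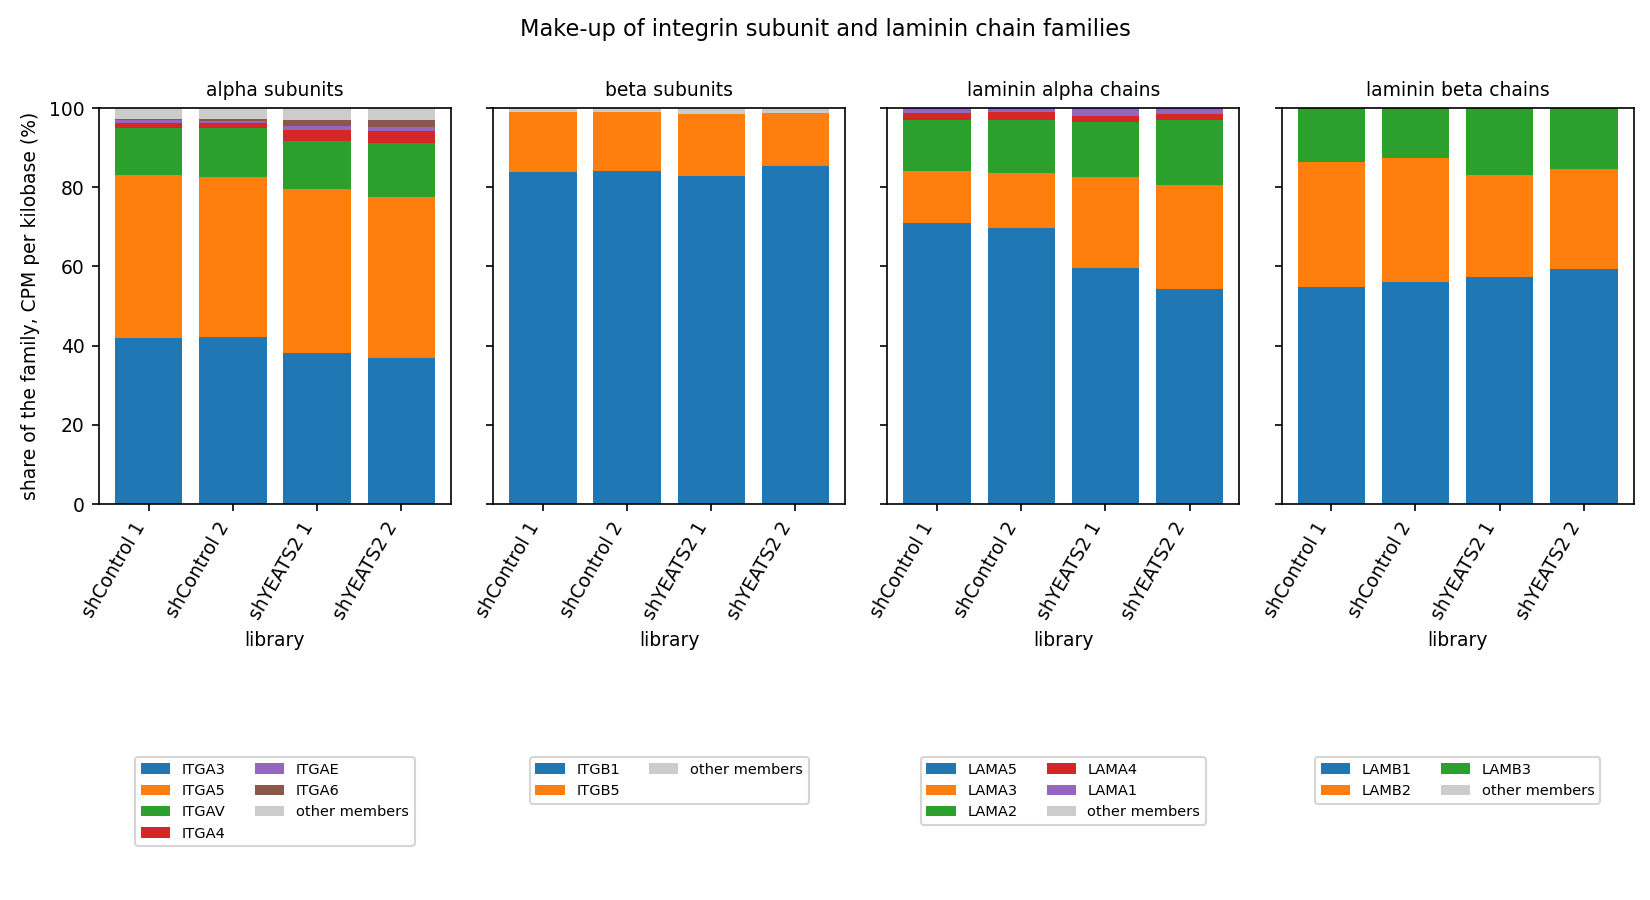
Share of each gene in the summed level of its family, in percent of the CPM per kilobase of the canonical transcript, with 1 bar for each library. The LAMA5 part of the laminin alpha bars shrinks from 70.9% and 69.7% in shControl to 59.6% and 54.4% in shYEATS2 while the LAMA3 part grows, and the beta subunit bars look alike in all libraries.

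The 7 lists of partner genes were counted in the same test, in which 23.6% of all genes tested were lower and 22.6% higher. They were not refitted with library totals alone, which moved the median of all genes to 0.13. Of 40 linkers between integrins and actin and adhesion signalling genes, 39 were tested, and 13 were lower and 9 higher (median −0.06). The largest falls were in KANK2 (−0.79, adjusted p = 2.87e-17), which couples talin to the cell cortex, TNS2 (−0.55, adjusted p = 1.86e-09) and DOCK1 (−0.42, adjusted p = 2.71e-07). Rises were found in the kinase FYN (0.65, adjusted p = 1.78e-10) and the talin TLN2 (0.43, adjusted p = 0.000577). The share called lower in this list was 33.3% and the share called higher 23.1%, the latter near that of all genes tested.

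The hemidesmosome list has 4 genes, of which CD151 (−0.38, adjusted p = 1.59e-06), the tetraspanin bound to laminin-binding integrins, and PLEC (−0.30, adjusted p = 2.21e-05), the linker of ITGB4 to keratin, were lower. DST was not called at 415 and 428 CPM in shControl and 434 and 466 CPM in shYEATS2 (adjusted p = 0.196). COL17A1, the transmembrane collagen of hemidesmosomes, was below 1 CPM in every library. Of 12 tetraspanins and other integrin modulators, 4 were lower and 2 higher (median −0.06), against 23.6% and 22.6% of all genes tested. CAV1 (−0.95, adjusted p = 3.02e-22), CD82 (−0.64, adjusted p = 1.94e-11) and CD81 (−0.44, adjusted p = 3.84e-07) fell most, and CD9 (0.69, adjusted p = 4.62e-11) and SLC3A2 (0.43, adjusted p = 3.27e-09), the CD98 heavy chain, rose.

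Of 8 other receptors for laminin and basement membrane, 5 were lower and 2 higher (median −0.36). SDC2 (−0.62, adjusted p = 5.78e-12), RPSA (−0.45, adjusted p = 8.5e-10) and DAG1 (−0.37, adjusted p = 7.2e-07), the dystroglycan gene, were among the falls. RPSA also encodes a ribosomal protein, and it has processed pseudogenes that can share its reads, so its value is uncertain. The collagen receptor DDR2 rose from 6.31 and 7.44 CPM to 19.7 and 23.4 CPM (1.64, adjusted p = 3.09e-19) while DDR1 was lower (−0.34, adjusted p = 5.4e-06). SDC1, an epithelial syndecan, rose (0.43, adjusted p = 8.26e-06).

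Of 18 basement-membrane partners of laminin, 13 were tested, and 8 were lower and 5 higher (median −0.28). NID1, which bridges laminin and collagen IV, stood at 51.7 and 54.7 CPM in shControl and at 20.3 and 17.7 CPM in shYEATS2 (−1.46, adjusted p = 2.69e-23). COL7A1 (−0.87, adjusted p = 4.94e-19), the anchoring fibril collagen that binds laminin-332, and COL18A1 (−0.77, adjusted p = 7.62e-17) were also lower. NTN4, a laminin-related netrin, rose from 39.9 and 40.5 CPM to 86.3 and 87.7 CPM (1.11, adjusted p = 5.22e-22). COL4A6 rose less (0.44, adjusted p = 0.000445), and the other 3 rises were in genes under 3 CPM in every library.

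The enzymes that process laminins and integrins gave the lowest median of the 7 lists. Of 9 genes, 7 were tested, and 6 were lower and 1 higher (median −1.19). TLL1 (−1.81, adjusted p = 2.87e-21), of the BMP1 family whose members cleave laminin-332 chains, PCSK5 (−1.29, adjusted p = 2.4e-22), a proprotein convertase, and MMP2 (−1.29, adjusted p = 5.56e-29), a gelatinase, fell most. PLAT rose (0.88, adjusted p = 2.08e-05) at levels between 3.25 and 6.63 CPM. Of 20 ligands of fibronectin- and RGD-binding integrins, 15 were tested, and 10 were lower and 3 higher (median −0.47). POSTN, the periostin gene (−1.98, adjusted p = 1.12e-36), EDIL3 (−1.22, adjusted p = 7.89e-27) and NPNT (−1.15, adjusted p = 9e-15) fell most, and the matricellular genes CCN2 (2.36, adjusted p = 5.44e-40), CCN1 (1.01, adjusted p = 1.15e-23) and TNC (0.36, adjusted p = 3.14e-07) rose. FN1, the fibronectin gene, stood at 5870.0 and 5916 CPM in shControl and at 5545 and 5187 CPM in shYEATS2 and was not called (−0.14, adjusted p = 0.0626). VCAM1, a ligand of ITGA4, had at most 1 count in a library.

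**Figure D4:**
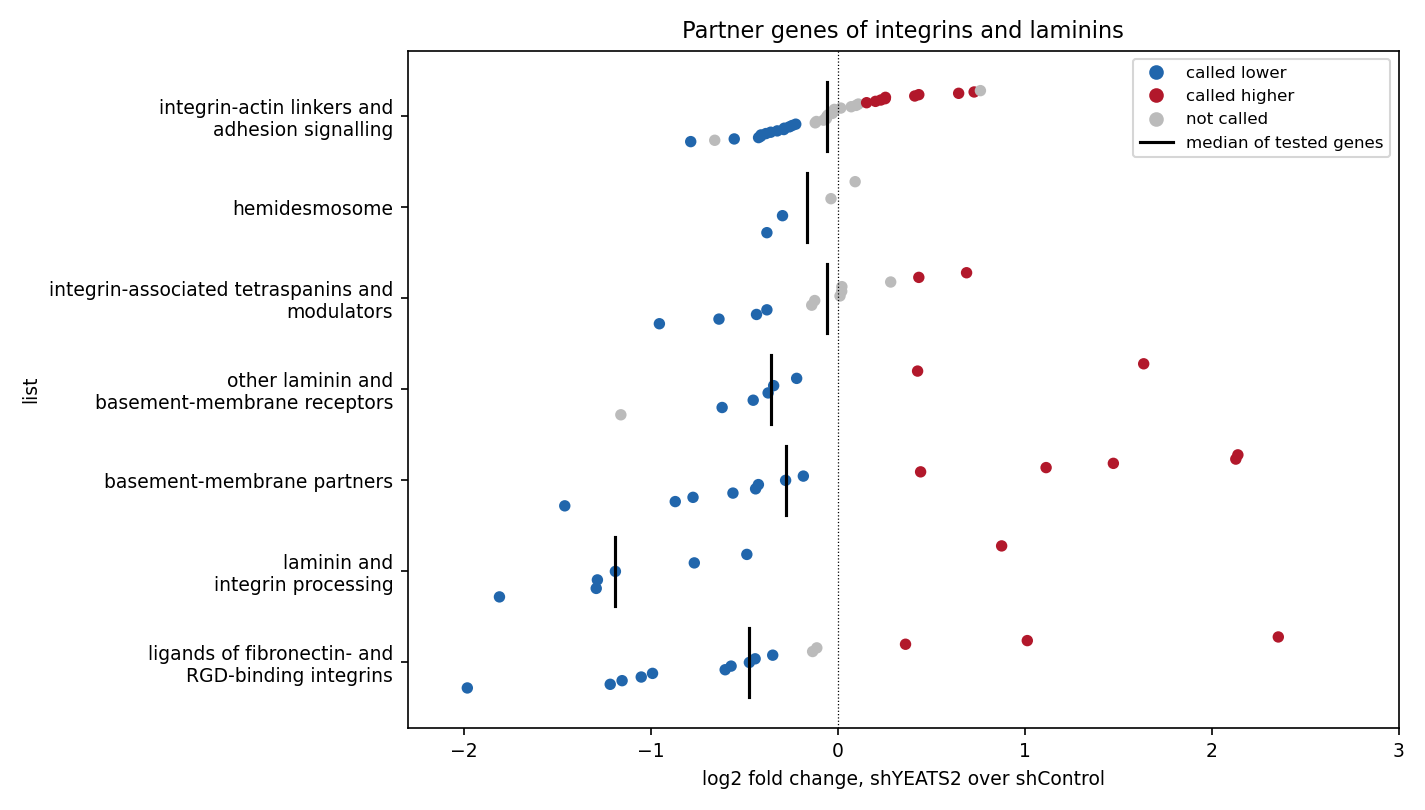
Log2 fold change, shYEATS2 over shControl, of the tested genes in 7 lists of integrin and laminin partners, with blue points for genes called lower, red for called higher and grey for not called, and black bars for the medians. The bar of the processing enzymes lies at −1.19, farthest to the left, and that of the adhesion linkers at −0.06.

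Which members keep their call depends in part on the scaling and on single libraries. Under all 14 alternatives, 7 members stayed lower (ITGA1, ITGA3, ITGA5, ITGA11, ITGAV, LAMA5 and LAMB2) and 3 stayed higher (ITGA4, ITGA6 and ITGB3). The other 9 called members lost the call under at least 1 alternative, and none of the 19 called members changed direction. The 14 alternatives leave out the stricter threshold and the exon lengths, which are described with the processing below. How often called genes outside the set keep their call under all of them was not counted.

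**Figure D5:**
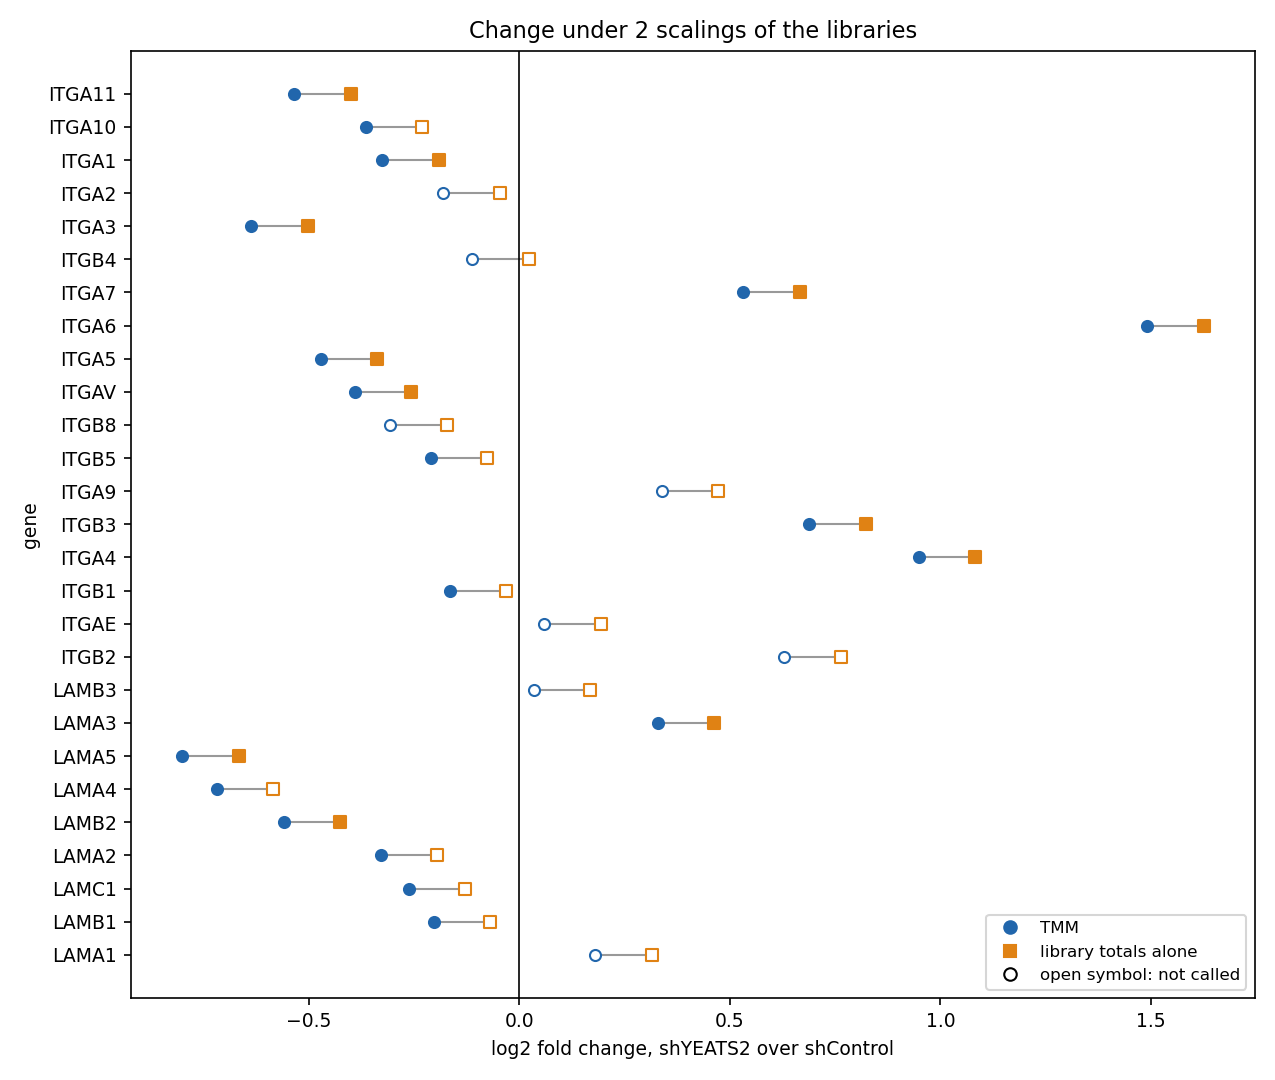
Log2 fold change of 27 tested members with TMM scaling (blue circles) and with library totals alone (orange squares), filled where the adjusted p was under 0.05. Each square lies to the right of its circle, as library totals move the median of all genes from −0.01 to 0.13, and 7 of the 14 members called lower keep a filled square.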

How the data were processed

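RNA from BICR10 cells with shControl or shYEATS2 was sequenced as pairs of 150 bp reads from stranded mRNA libraries. The authors mapped the pairs with STAR (build GRCh38), assigned them to genes with HTSeq and deposited raw counts in whole numbers. The annotation release and the strand setting of the counting are not given in the sources used here. Between 15.3% and 16.5% of the tallies in a library were given to no gene, and these were left out of library sizes and tests.

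Libraries were grouped by the labels. After edgeR's filterByExpr and TMM scaling, the counts were fitted with the quasi-likelihood functions glmQLFit (robust) and glmQLFTest of edgeR 4.0.16 (limma 3.58.1, R 4.3.3). The threshold for a call was 0.05 after Benjamini-Hochberg adjustment over 17058 genes. Positions, exon overlaps and transcript lengths came from GENCODE release 44, in which 60295 of the 60623 genes were found, and promoter sequences from RefSeq (GRCh38.p14). The procedure was also run on simulated counts in which few genes were changed, as many up as down. Such a run cannot check the scaling of these libraries, in which 46.2% of all genes tested were called. The counts of replicates differed by more than sampling noise (chi-square per degree of freedom 5.95 and 5.39). The replicate differences of both groups correlated at −0.018 over all genes tested. No pairing by replicate number was seen in this check, which cannot exclude a shared batch.

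The members and the gene lists were chosen with earlier results of these data known. Values in every library are given for tested members with a mean of at least 5 CPM or a called change of at least 1 on the log2 scale, and for each partner list up to 3 largest called rises and falls with a mean of at least 10 CPM are named. A member and a partner gene that this rule covers, and a marker gene, are not reported here by name. DST, COL17A1, DDR1, PLAT, FN1, VCAM1, the marker genes and members under 5 CPM were named besides this rule, after their values were seen. The alternatives tried were scaling by upper quartiles, by library totals alone or by the size factors of DESeq2, other count filters, DESeq2 1.42.0, limma-voom or the likelihood ratio test, a replicate block, thinned counts, an adjusted p under 0.01, each library left out in turn, and all annotated exons as gene length, which was added after the data had been seen.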

Additional observations from a re-analysis of the deposited data

How the results depend on the processing

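Of 392 values of the 28 tested members and 14 alternatives, 355 kept their direction and their side of the threshold, 24 lost the call and 5 gained one. The other 8 changed sign, none of them called before or after the change. These were ITGB4 with library totals alone (0.0222), LAMB3 without a filter (−0.014), and leave-one-out fits of ITGB4 (range −0.37 to 0.0231), LAMB3 (−0.0796 to 0.0992), ITGAE (−0.0796 to 0.13) and LAMA1 (−0.24 to 0.38). With library totals alone the number of members called lower was 7 instead of 14. When single libraries were left out, it ranged from 9 to 15 and the number called higher from 3 to 5, the lowest values being those without shControl replicate 2 and without shControl replicate 1. The lone library of a group was then assumed to vary like the other group. In each of these fits, the shares of all genes tested called lower and called higher were below those with every library kept. A lower number of called members in these fits is therefore not particular to the set. The cause of these shifts was not tested. With DESeq2, 12 members were lower and 4 higher, against 17.3% and 16.5% of all genes tested. With an adjusted p under 0.01 the counts were also 12 and 4, against 18.8% and 17.4% of all genes tested. With the replicate number as a block, 14 were lower and 4 higher, against 24.3% and 22.7% of all genes tested. ITGA7 lost its call with the block (0.53, adjusted p = 0.055). Without a filter on low counts, 15 of 38 members were lower and 4 higher, against 13% and 9.23% of all genes tested. Depth limits the 10 members with at most 10 counts in a library, for which no statement on a difference is made.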
